A study of Sus scrofa with 20 samples.

Results

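The genes described here are the chemokines, interleukins and their receptors of the pig that the array measured in ileal mucosa. They were taken by name: every probe set with 1 gene symbol in the platform annotation that begins with CCL, CCR, CXCL, CXCR or IL followed directly by a digit, apart from CXCL13, CCL28 and CCR9. This gave 62 probe sets of 54 genes, among 6765 genes with 1 symbol and 23999 probe sets tested. Each gene is given by 1 value, that of its probe set with the highest mean over the 20 arrays, and 7 of the 54 genes have more than 1 probe set.

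The study asked how the ileal transcriptome changes with age in suckling piglets and after weaning. All were of a cross of the Landrace, Large white and Duroc breeds, and each array holds RNA from the ileal mucosa of 1 piglet. Suckling piglets stayed with the sow without access to her feed and were sampled at 14 days (S14D, n = 3), 21 days (S21D, n = 4), 28 days (S28D, n = 4) and 35 days of age (S35D, n = 3). Weaned piglets were taken from the sow at 21 days of age, received a commercial diet, and were sampled at 28 days (21W28D, n = 3) and 35 days of age (21W35D, n = 3), which is 7 and 14 days after weaning. Litters were not given per array, piglets of 1 group may be littermates, and p-values measure the spread between these piglets.

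Chemokines are small secreted proteins that bind G protein-coupled receptors on leukocytes and guide them into tissues. Some are made constantly and place lymphocytes in lymphoid tissue or the gut wall, and others are induced by interferon or inflammation. Interleukins carry signals between immune, epithelial and stromal cells, mostly through paired receptor chains that act on JAK and STAT proteins or, for the interleukin 1 family, on NF-kappaB. In the piglet ileum, Peyer's patches grow in the weeks around weaning, while the mucosa meets microbes and solid feed.

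The deposited values are log2 units after gcRMA, with a floor of 2.08 and array medians between 5.07 and 5.34. Of all values, 41.6% lay within 1 unit of the floor, where differences are compressed. Doubt about 2 labels is not settled by correlations between arrays. Each of the 3 arrays labelled S35D was closer to 21W35D than to S28D piglets, and for 2 of the 3 arrays labelled 21W28D it was the other way round. The closer groups are of equal age by the deposited labels, so this pattern cannot tell deposited from exchanged labels. Counts over all genes did differ: at an adjusted p under 0.05 in limma, 612 genes passed from S28D to S35D and 0 from S28D to 21W28D. With the 2 labels exchanged these counts were 0 and 612. The paper, by unadjusted p and a 2-fold minimum, reports far more genes between S28D and 21W28D than between S28D and S35D. That order is the one found here with exchanged labels. Of the arrays of 21W35D, 1 was closer to those labelled S35D than to S28D piglets. The deposited labels were kept, and the groups labelled S35D and 21W28D are called by their labels throughout. Exchanged values are given beside results that use these 2 groups where the exchange changes a call, a direction or the size by much. Markers of epithelium were high in all arrays, with a mean of 11 measured genes between 11.73 and 13.10 log2 units. The T cell markers CD3E and LCK lay over 1 unit above the floor in every array, and the B cell gene CD79B in all but 21W35D replicate 2, whereas CD4 and all 4 measured neutrophil markers (S100A8, S100A9, S100A12 and ELANE) lay within 1 unit of it in all 20 arrays.

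Of the 54 genes, 32 reached 4 log2 units in at least 3 arrays, 17 stayed within 1 unit of the floor in all 20 arrays, and 5 lay in between. The 17 genes at the floor were the cytokines IL2, IL4, IL5, IL13, IL17A, IL17B, IL21, IL12A, IL12B, IL1A, the chemokine CCL27 and the receptors CCR2, CCR7, IL12RB2, IL18R1, IL2RA and IL6R. For these genes no difference was detectable on this array, which does not show that they were not expressed. The 5 genes in between were CCL14, CCL21, IL6, IL7R and IL13RA1, and IL6, a cytokine of acute inflammation, exceeded 3 log2 units in 1 array, S21D replicate 2 at 3.41. Among groups by role, 6 of 7 inflammatory CC chemokines, 4 of 6 homeostatic chemokines, 4 of 6 chemokine receptors and both neutrophil-recruiting chemokines passed this level. None of the 3 cytokines of the interleukin 6 and 12 families and none of the 2 of the interleukin 17 family did so. A gene that is high in only 1 group passes this level through that group, so that the 32 genes are a description and not a test.

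**Figure D1:**
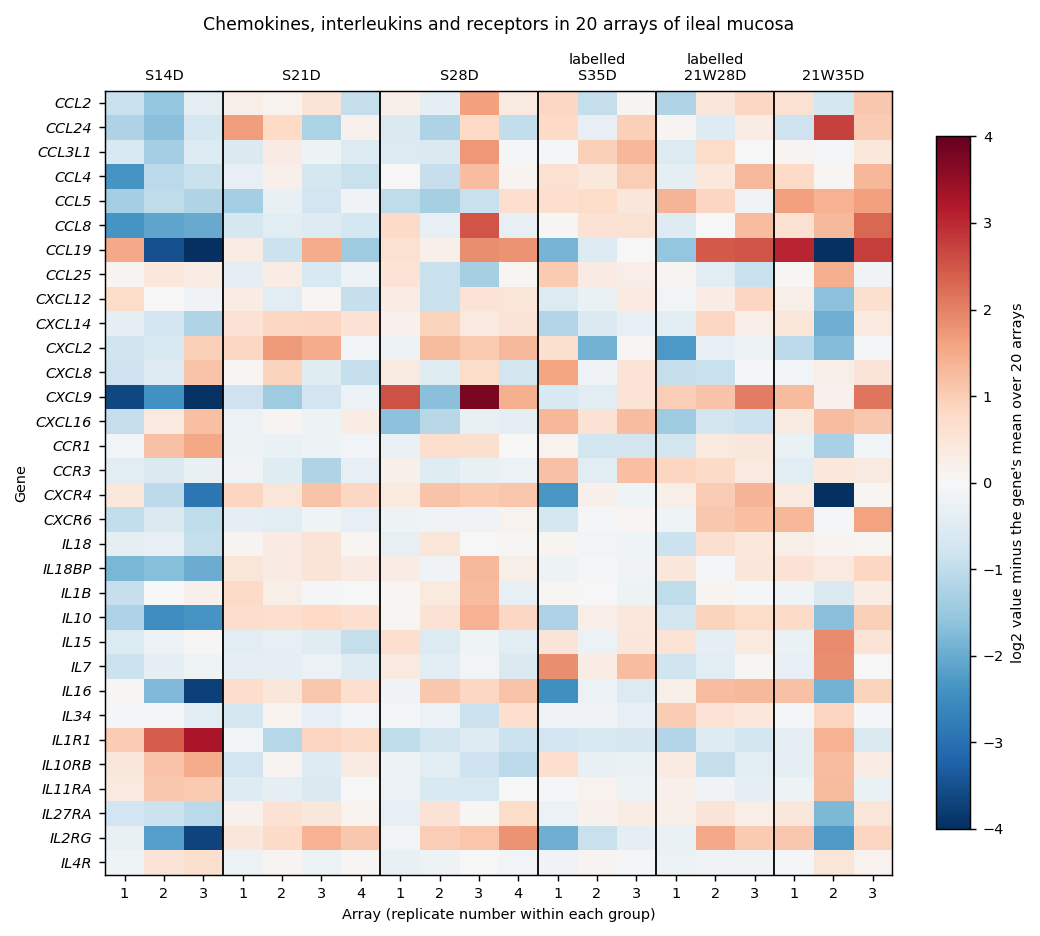
The 32 genes that reached 4 log2 units in at least 3 arrays (rows) are plotted in each of the 20 arrays (columns, by group and replicate number) as the log2 value minus the mean of that gene over all arrays, with colours clipped at 4 log2 units to either side. S14D arrays are low for CXCL9, CCL8 and IL18BP and high for IL1R1, and replicate 3 of S14D, replicate 1 of the arrays labelled S35D and replicate 2 of 21W35D share low values of CXCR4, IL16 and IL2RG.

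The step from 14 to 21 days of age held most of the calls. A gene was called at an adjusted p under 0.05 in limma, with Benjamini-Hochberg adjustment over all 23999 probe sets. IL18BP, IL10, IL2RG and CXCL14 were higher in S21D than in S14D piglets, and IL1R1, IL11RA and CCL14 were lower. These 4 higher and 3 lower genes compare with 10.3% of all genes called higher and 10.1% called lower in the same comparison, so that the 7 of 54 genes, or 13.0%, are below the share of 20.3% over all genes. At an unadjusted p under 0.05, 16 of the 54 passed, and the groups did not overlap for 15. Such counts, here and in the comparisons below, were not compared with those over all genes. They are descriptions and do not show whether these genes differ from others. The median log2 difference was 0 over the 54 genes, as it was over all genes.

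IL18BP is a secreted protein that binds and neutralises interleukin 18. Its log2 values were 6.40, 6.54 and 6.26 in S14D piglets and 8.71, 8.56, 8.74 and 8.56 in S21D piglets. Every S21D array was thus above every S14D array, by more than the spread within either group. The difference was 2.24 (standard error 0.25, a 4.73-fold higher value), with an adjusted p of 7.12e-05 in limma. It stayed called when any of the 20 arrays was left out, with differences between 2.17 and 2.31. IL18 itself, which epithelial cells make, had values of 11.12, 11.17 and 10.56 in S14D and of 11.61, 11.83, 12.01 and 11.58 in S21D piglets. Its groups did not overlap either, but the difference of 0.81 (standard error 0.29) was not called (limma adjusted p = 0.074, or 0.0389 in a fit without dim probe sets, which keeps those that reached 4 log2 units in at least 3 arrays), and IL18R1, a receptor chain of interleukin 18, was at the floor.

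IL10 encodes a cytokine that restrains inflammation. It measured 4.93, 3.70 and 3.81 log2 units in S14D piglets and 6.88, 6.85, 6.98 and 6.85 in S21D piglets. The S21D values lay close together, and all were above those of S14D. The difference was 2.74 (standard error 0.62, 6.68-fold, limma adjusted p = 0.0112), and the call was lost without replicate 2 or without replicate 3 of S14D, where the adjusted p reached 0.0617. IL10RB, the shared second chain of the receptors of this family, had the opposite sign. Its values were 8.68, 9.37 and 9.69 in S14D and 7.44, 8.33, 7.70 and 8.56 in S21D piglets, without overlap, and the difference of -1.24 (standard error 0.43) was not called (limma adjusted p = 0.0662, or 0.0321 without dim probe sets).

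IL2RG is the common gamma chain of the receptors for interleukins 2, 4, 7, 15 and 21. Its values were 7.52, 5.62 and 4.11 in S14D piglets and 8.26, 8.59, 9.21 and 8.90 in S21D piglets. The S14D arrays spread over more than 3 log2 units, with replicate 1 closest to the S21D arrays. The difference of 2.99 (standard error 0.86, 7.92-fold) had a limma adjusted p of 0.0324. With 1 array left out it ranged from 2.17 to 3.87, and the call was lost without replicate 2 or 3 of S14D or without any 1 of the 4 S21D arrays. Of the cytokines that bind it, IL2, IL4 and IL21 were at the floor, and IL7 and IL15, survival factors for lymphocytes, differed by 0.10 and -0.30. The partner chain IL4R, which binds interleukin 4, differed by -0.40 and was not called (limma adjusted p = 0.138).

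CXCL14, a chemokine that epithelia make constantly, measured 12.48, 12.09 and 11.65 in S14D and 13.46, 13.70, 13.74 and 13.46 in S21D piglets. The groups did not overlap, and the difference was 1.52 (standard error 0.48, 2.86-fold, limma adjusted p = 0.0476). This call was the least stable: it was lost in 14 of the 20 fits that each left out 1 array, 2 of them without replicate 2 or 3 of S14D and 4 without an S21D array. The other probe set of CXCL14 gave a difference of 0.87 that was not called (limma adjusted p = 0.209).

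IL1R1, the signalling receptor of interleukin 1, was among the genes that fell. Its values were 6.40, 7.81 and 8.65 in S14D piglets and 5.27, 4.23, 6.22 and 6.15 in S21D piglets. The lowest S14D array lay just above the highest S21D array. The difference was -2.15 (standard error 0.56, 4.44-fold lower in S21D, limma adjusted p = 0.0225). The call was lost without replicate 2 or 3 of S14D or without replicate 1 or 2 of S21D, and its other probe set was at the floor in all arrays. Its ligand IL1B measured 4.86, 5.75 and 5.96 in S14D and 6.53, 6.02, 5.70 and 5.77 in S21D piglets. These groups overlapped, and the difference of 0.48 was not called (limma adjusted p = 0.499), while IL1A stayed at the floor.

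IL11RA, the chain that binds interleukin 11, measured 7.82, 8.50 and 8.47 in S14D and 6.92, 7.08, 6.86 and 7.43 in S21D piglets. All S21D arrays were lower, with a difference of -1.19 (standard error 0.32, limma adjusted p = 0.0252), and the call was lost without replicate 2 or 3 of S14D or replicate 1 or 3 of S21D. IL27RA, which belongs to the same receptor family, measured 8.11, 8.02 and 7.81 against 9.05, 9.48, 9.35 and 9.02. It was higher in every S21D array but was not called (difference 1.25, standard error 0.43, limma adjusted p = 0.0657). It was called without dim probe sets (adjusted p = 0.0318), in the fit of only these groups (0.0145) and by the methods' t-test after adjustment (0.0182). CCL14 measured 3.04, 3.17 and 3.18 in S14D and 2.56, 2.56, 2.34 and 2.56 in S21D piglets. Its difference of -0.63 (standard error 0.08, limma adjusted p = 0.000358) was called in all 20 fits with 1 array left out, but CCL14 never exceeded 3.18 log2 units, and the difference is smaller than 2-fold.

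**Figure D2:**
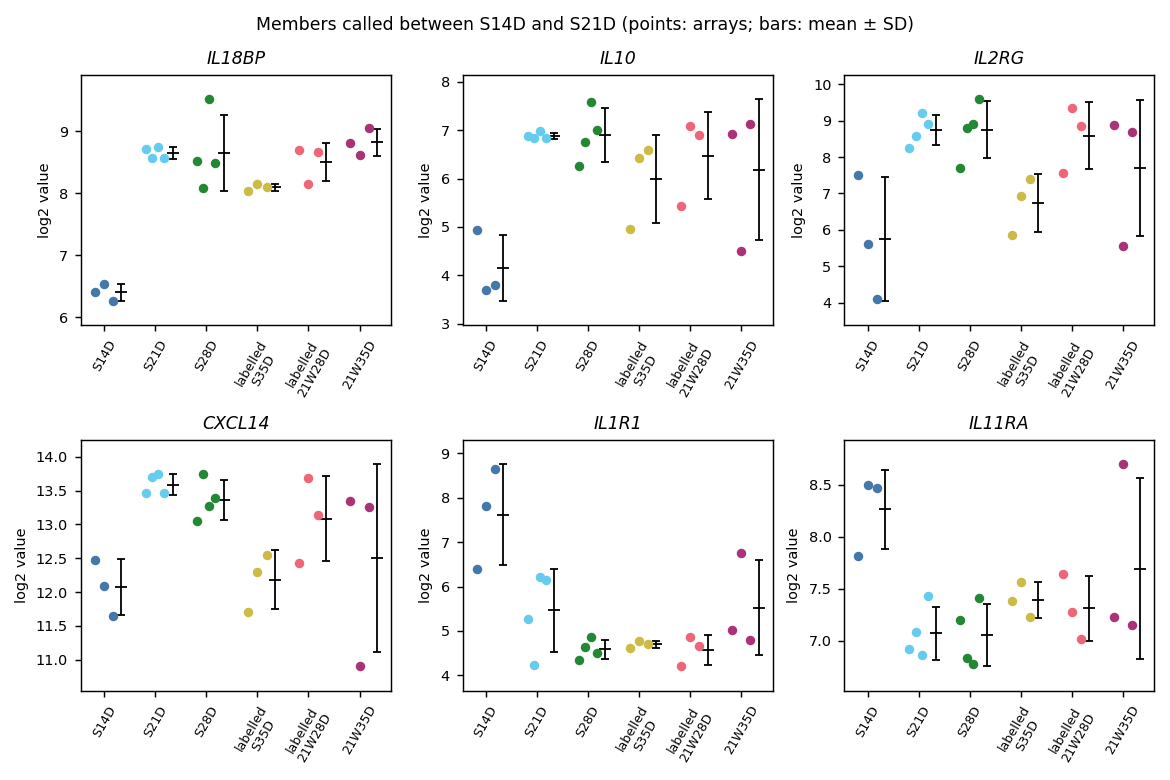
Log2 values of IL18BP, IL10, IL2RG, CXCL14, IL1R1 and IL11RA in each array (points) by group, with the mean ± SD of each group beside them. For these 6 genes all 3 S14D arrays lie to 1 side of all 4 S21D arrays, and the gap is widest relative to the spread for IL18BP.

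The chemokines CXCL9 and CCL8 were higher in all S21D than in all S14D arrays without passing the adjusted test. CXCL9, an interferon-induced attractant of activated T cells, measured 6.30, 7.54 and 6.0 in S14D and 9.11, 8.52, 9.18 and 9.70 in S21D piglets, a difference of 2.51 (standard error 0.94, limma adjusted p = 0.0857). CCL8, which attracts monocytes, measured 5.64, 5.90 and 5.98 against 7.34, 7.59, 7.48 and 7.30, a difference of 1.59 (standard error 0.60, limma adjusted p = 0.088). The shared error of the fit includes the S28D arrays, where CCL8 and CXCL9 had SDs of 1.34 and 2.33. In the fit of only S14D and S21D arrays, CCL8, CXCL9 and IL27RA were called (adjusted p = 0.00666 for CCL8 and 0.0348 for CXCL9), whereas IL1R1 and IL2RG were not.

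IL16, a lymphocyte product that attracts cells with CD4, measured 9.07, 7.26 and 5.29 in S14D and 9.75, 9.48, 10.10 and 9.72 in S21D piglets. The difference of 2.56 (standard error 0.85) missed the threshold (limma adjusted p = 0.0563). CXCR4, the receptor of CXCL12 on lymphocytes, measured 12.49, 11.03 and 9.19 against 12.92, 12.56, 13.21 and 12.90. Again replicate 3 of S14D was the lowest and replicate 1 the nearest to S21D. The groups did not overlap, but the difference of 1.99 (standard error 0.97) was not called. CXCL12 itself differed by -0.45 (standard error 0.52), with overlapping groups.

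Markers of immune cells moved with this step. Of 3 measured B cell markers, 2 rose (BLNK by 1.14 and SPIB by 2.38), and of 9 measured T cell markers 5 rose, among them CD8A by 2.11 and LCK by 2.35 (limma adjusted p between 0.019 and 0.0356 for these 4 genes). The mean of the B cell markers was 11.80, 10.57 and 7.91 in S14D piglets and between 12.23 and 12.77 in S21D piglets, and that of the T cell markers was 5.46, 4.61 and 4.56 against a range of 5.88 to 6.63. Of 6 measured markers of macrophages and dendritic cells, C1QA, C1QC and FCER1G rose (mean of the list 6.06 to 6.20 against 6.71 to 7.25), although CD14 was at the floor. Markers of other tissues were lower with IL1R1, IL11RA and CCL14: the mean of 7 genes of endothelium and lymphatics was 6.09 to 6.20 in S14D and 5.28 to 5.77 in S21D piglets (LYVE1 fell by 1.79 and PECAM1 fell by 0.73), and that of 8 genes of smooth muscle and fibroblasts was 7.26 to 7.40 against 6.44 to 6.75. Erythrocyte markers were 8.86, 6.23 and 4.83 in S14D and 5.07 to 5.69 in S21D piglets. The part of these markers in the values of the genes above was not tested. In whole mucosa, fewer cells of a type and less RNA per cell cannot be told apart.

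**Figure D3:**
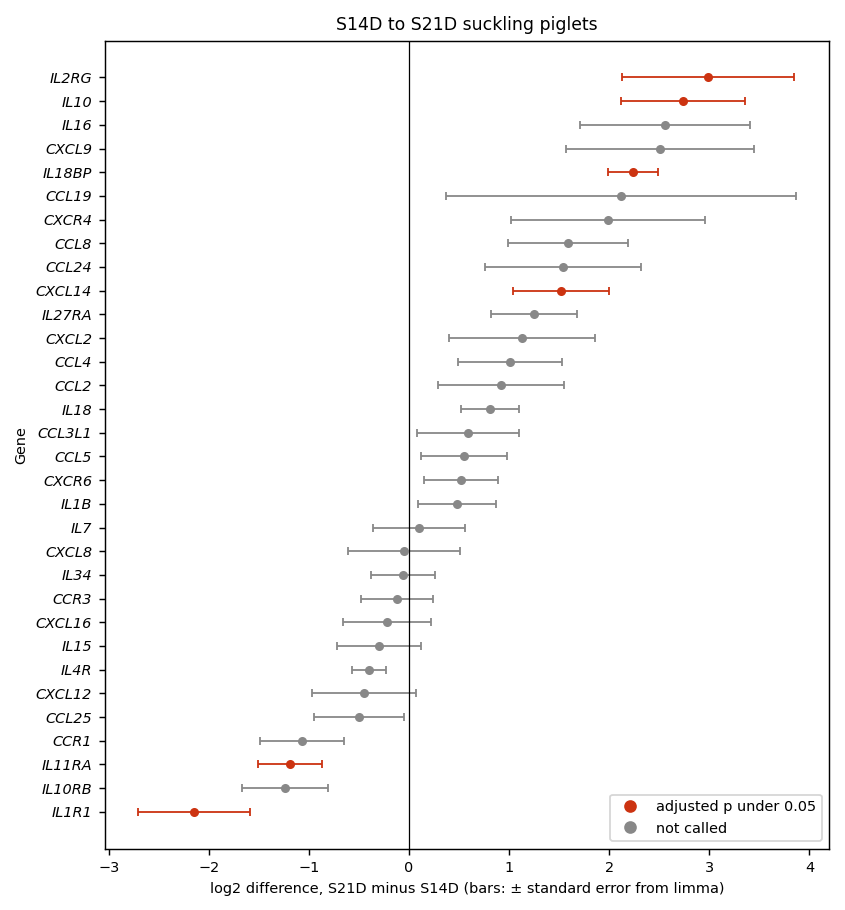
Log2 difference of S21D minus S14D piglets (points) with its standard error from limma (bars) for the 32 genes at measurable levels, in order of size; red marks an adjusted p under 0.05. IL2RG and IL10 have the largest positive differences and IL1R1 the largest negative one, while IL18BP has the narrowest error among the large differences; CCL14, also called, is near the floor and not plotted.

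**Figure D4:**
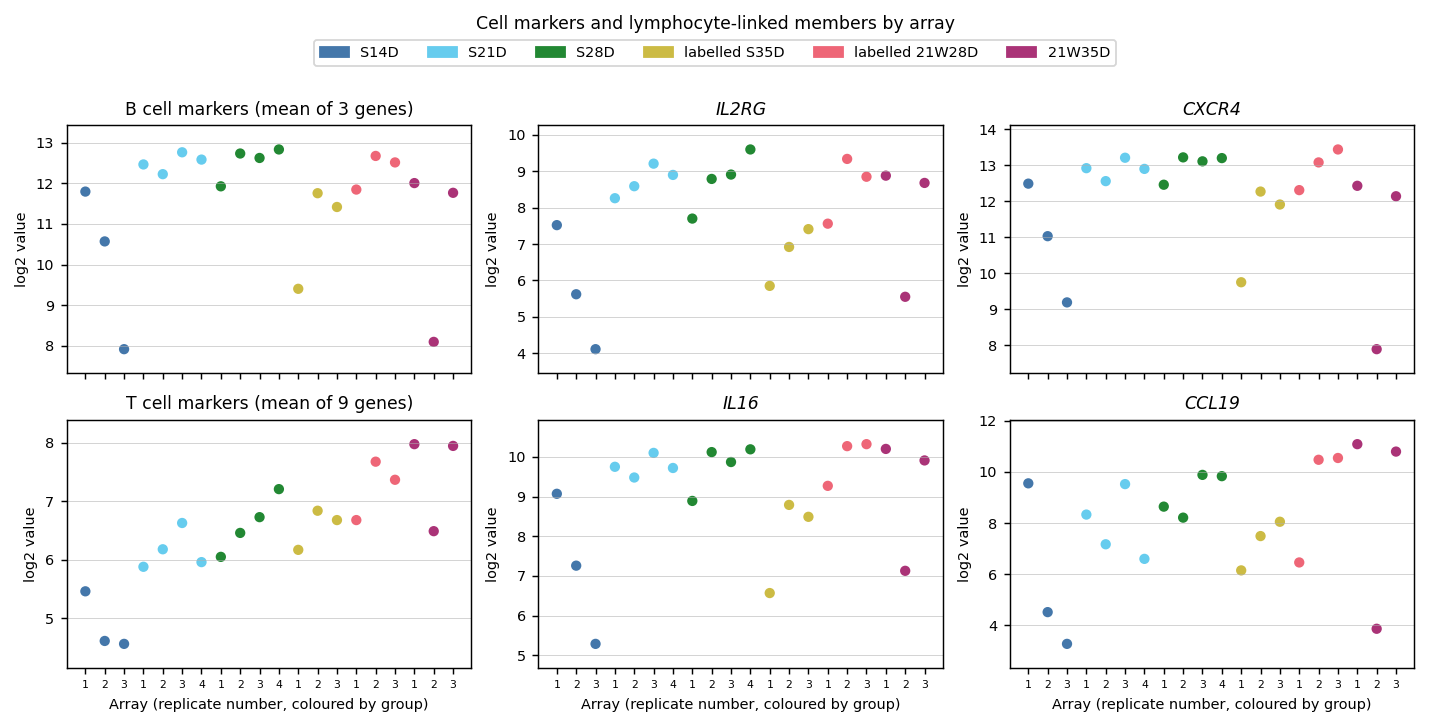
Mean log2 value of 3 B cell and 9 T cell markers, and log2 values of IL2RG, IL16, CXCR4 and CCL19, in each array (points, coloured by group, with the replicate number below). Replicate 3 of S14D, replicate 1 of the arrays labelled S35D and replicate 2 of 21W35D are the lowest of their groups for the B cell markers and for all 4 genes.

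Genes of the signalling pathways below these receptors were counted from 4 lists, beside the 10.3% of all genes called higher and 10.1% called lower in this comparison. The counts of 3 of 17, 3 of 13 and 1 of 13 below are small and were not tested against these shares. They show nothing particular to their lists. Of 17 measured genes of chemokine receptor signalling, 9 rose and none fell from S14D to S21D, with a median difference of 1.15 over the list. The largest were RGS1, which limits G protein signalling in lymphocytes (2.87, limma adjusted p = 0.000436), VAV1, an exchange factor in leukocytes (2.20), RGS18 (1.91) and RAC2, a leukocyte GTPase (1.63). Several of these are themselves expressed mainly by leukocytes, whose markers moved with them as above. Of 17 measured genes of JAK-STAT signalling, 3 rose: STAT6, which acts below interleukin 4 receptors (1.19, limma adjusted p = 0.00264), the phosphatase PTPN2 (0.59) and PIAS1 (0.34). Of 13 measured genes between interleukin 1 and 17 receptors and NF-kappaB, 3 fell: CASP1, which cleaves interleukins 1 beta and 18 (-1.37), and the inhibitors SIGIRR (-1.22) and TOLLIP (-1.02). Of 13 other measured chemokine, atypical receptor and cytokine genes, 1 rose, the atypical receptor CCRL2 (1.02, limma adjusted p = 0.0421).

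From S21D to S28D no gene of the 54 was called, beside 0.0148% of all genes. At an unadjusted p under 0.05 in limma 3 passed. The methods' t-test gave none at an unadjusted p under 0.05 and at least 2-fold, and none after adjustment. CXCL9 measured 12.49, 8.27, 13.70 and 11.36 in S28D piglets, with 3 of 4 arrays above all of S21D, and its difference of 2.33 (standard error 0.87) had a limma adjusted p of 1.0. CCL8 measured 8.76, 7.67, 10.52 and 7.67, and replicate 3 of S28D was the highest array for both chemokines. The groups of CCL8 did not overlap, but its difference of 1.23 was not called either (adjusted p = 1.0).

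Between S28D piglets and the arrays labelled S35D, 2 genes were called, CXCL16 and CCL14, both higher in the latter. Over all genes 6.18% were called higher and 2.87% lower in this comparison, and 8 of the 54 passed at an unadjusted p under 0.05. CXCL16, which is held on cell membranes and is the ligand of CXCR6, measured 8.27, 8.79, 9.59 and 9.55 in S28D piglets and 11.22, 10.49 and 11.12 in the arrays labelled S35D. The groups did not overlap, with a difference of 1.89 (standard error 0.44, 3.71-fold, limma adjusted p = 0.0265). The call was lost without replicate 2 of S28D or without replicate 1 or 3 of the arrays labelled S35D (adjusted p up to 0.142), and in the fit of these groups alone (adjusted p = 0.101). With the 2 labels exchanged the difference was -0.15 and no gene of the 54 was called, since the arrays labelled 21W28D measured 8.47, 9.16 and 9.05. CCL14 measured between 2.20 and 2.94 in these groups, a difference of 0.35 near the floor (limma adjusted p = 0.0272) that was lost without replicate 2 or 3 of either group and with the replicate number as a block (adjusted p = 0.0619). With this block CCL5 was called instead (difference 1.56, adjusted p = 0.0487).

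Among genes that were not called in this comparison, CCL5 differed by 1.26 (limma adjusted p = 0.0902) and IL7 by 1.31 (adjusted p = 0.0966), and both were called without dim probe sets (adjusted p = 0.0446 and 0.0477). IL7 reached 4 log2 units only in replicates 1 and 3 labelled S35D (5.28 and 4.67) and in replicate 2 of 21W35D (5.28). It thus passed that filter mainly through the group where it was high, and its call there is a description only. With the labels exchanged CCL5 differed by 1.33 and IL7 by -0.19 (adjusted p = 1.0). IL2RG differed by -2.02, CCL19 by -1.91, IL16 by -1.82 and CXCR4 by -1.69 (adjusted p of IL2RG 0.167), and with the labels exchanged by -0.16, 0.02, 0.19 and -0.06. The 4 negative values went with the mean of the B cell markers, which was 9.40, 11.76 and 11.42 in the arrays labelled S35D and between 11.93 and 12.84 in S28D piglets, and the part of these markers was not tested. Smooth muscle and fibroblast markers were highest in replicate 3 of the arrays labelled S35D, at 8.49 against 6.95 at most in S28D piglets. Epithelial markers moved with CXCL16 between these groups. CDH1, CDH17 and KRT18 rose, and the mean of the list was 11.73 to 12.48 in S28D piglets and 12.75 to 13.10 in the arrays labelled S35D. Within S28D, replicate 1 had the highest mean of the list and the lowest CXCL16 (12.48 and 8.27). Within the arrays labelled S35D, replicate 1 was highest for both (13.10 and 11.22). The part of epithelial markers in CXCL16 was not tested. In the pathway lists SOCS6, SOCS4, CASP1, RAC1 and IFNGR1 rose (1.29, 0.83, 1.66, 0.62 and 1.22), and STAT6, TYK2 and IRAK1 fell (-1.0, -0.52 and -0.51). No gene of the 4 lists was called in the other 6 pairwise comparisons.

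Over the 4 suckling ages together, the F test of limma called 10 of the 54 genes, or 18.5%, beside 28.0% of all genes. They were CCL14, CCL5, CCL8, CXCL16, CXCL9, IL10, IL11RA, IL18BP, IL1R1 and IL2RG. CXCL9 had the widest range of group means, 4.84 log2 units, from 6.62 ± 0.81 (SD, n = 3) in S14D to 11.45 ± 2.33 (SD, n = 4) in S28D piglets (limma adjusted p = 0.0144). The means of CCL8 were 5.84, 7.43, 8.66 and 8.42 from S14D to the arrays labelled S35D (adjusted p = 0.0164), and those of IL1R1 were 7.62, 5.47, 4.58 and 4.70 (adjusted p = 0.00756). Among these suckling groups IL1R1 was thus lowest from 28 days on, where its SD was 0.22 in S28D and 0.08 in the arrays labelled S35D. In 21W35D piglets the mean of IL1R1 was 5.52 (SD 1.07, n = 3), with the highest array at 6.76. IL18BP, IL1R1 and CCL14 stayed called when any 1 array was left out. The call of CXCL9 was lost without replicate 3 of S14D, and those of CCL8 and IL10 without replicate 2 or 3 of S14D. CXCL16, IL11RA, IL2RG and CCL5 lost the call in 7, 11, 13 and 16 of the 20 such fits, with adjusted p up to 0.173. With the labels exchanged 6 stayed called (CCL14, CCL8, CXCL9, IL10, IL18BP and IL1R1), beside 15.2% of all genes.

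The 5 suckling and weaned groups from 21 days on were first tested together, for any difference between them by age or weaning, which does not depend on which of the 2 doubted labels is which. It called CCL5 and CXCL16, or 3.7% of the 54 genes, beside 3.39% of all genes. CCL5, an attractant of T cells that cytotoxic lymphocytes also release, had a range of group means of 2.19 (limma adjusted p = 0.0355), and CXCL16 had one of 2.05 (adjusted p = 0.0463). By the deposited labels CXCL16 was high at 35 days, with means of 10.94 in suckling and 10.80 in weaned piglets. It was low at 28 days, with means of 9.05 and 8.90, and S21D lay between at 9.89. With the 2 labels exchanged, the means of 10.94 and 10.80 belong to weaned and those of 9.05 and 8.90 to suckling piglets. Whether CXCL16 goes with age or with weaning thus depends on which labels hold, which was not tested. The counts over all genes given above were in the paper's order only with the labels exchanged. Neither call was stable: CCL5 was lost in 13 and CXCL16 in 16 of the 20 fits with 1 array left out, with adjusted p up to 0.0862 and 0.138.

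CCL5 measured 7.78, 8.85, 8.37 and 8.98 in S21D piglets and 8.13, 7.82, 8.24 and 9.82 in S28D piglets. It measured 9.81, 9.88 and 9.60 in the arrays labelled S35D, 10.50, 10.00 and 8.99 in those labelled 21W28D, and 10.76, 10.51 and 10.79 in 21W35D piglets. All 3 arrays of 21W35D were thus above every array of every other group, by a very small margin over replicate 1 of the arrays labelled 21W28D. In order of the group means, 7.95 in S14D, 8.50 in both S21D and S28D, 9.77 and 9.83 in the 2 doubted groups and 10.69 in 21W35D, the neighbours in this order overlapped up to 21W35D. From S21D to 21W35D, a comparison without the doubted groups, the difference was 2.19 (standard error 0.43, 4.57-fold), and its adjusted p of 0.0504 in limma just missed the threshold. It was called when dim probe sets were left out of the fit (adjusted p = 0.017) and without replicate 2 or 4 of S28D or replicate 3 of the arrays labelled 21W28D. The mean of the T cell markers was 5.88 to 6.63 in S21D piglets and 7.98, 6.49 and 7.95 in 21W35D piglets. Replicate 2 of 21W35D thus lay within the S21D range for this mean, although its CCL5 of 10.51 was above all S21D arrays. CD3G was the 1 marker of 9 called in this comparison (difference 1.92), and at 8.91 in that replicate it was above all S21D arrays. The part of these markers was not tested. CCL5 can bind CCR1 and CCR3, and neither receptor was called. The means were 5.43 and 5.07 for CCR1 and 2.76 and 3.42 for CCR3 in S21D and 21W35D piglets.

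In the comparison of S21D with 21W35D no gene of the 54 was called, beside 0.443% of all genes, and 9 passed at an unadjusted p under 0.05 in limma. The methods' t-test gave 6 at an unadjusted p under 0.05 and at least 2-fold, and none after adjustment. CCL8 measured 8.60, 9.31 and 10.29 in 21W35D piglets, all above S21D, with a difference of 1.97 (standard error 0.60, limma adjusted p = 0.224). CXCL9 was also above S21D in all 3 arrays, at 11.22, 10.13 and 12.10 (difference 2.02, adjusted p = 0.441). CXCR6, the receptor of CXCL16 on T cells, measured 2.82, 2.73, 3.00 and 2.85 in S21D and 4.50, 3.11 and 4.81 in 21W35D piglets. Its difference of 1.28 (standard error 0.37) was not called (limma adjusted p = 0.197), but without replicate 2 of 21W35D it was 1.80 and called. CXCL2, which attracts neutrophils, measured 7.16, 8.03, 7.83 and 6.24 in S21D and 5.29, 4.60 and 6.30 in 21W35D piglets. The groups overlapped by 1 array, and the difference of -1.92 was not called (adjusted p = 0.341), with all measured neutrophil markers at the floor in both groups. CXCL8, which acts on the same kind of cell, differed by 0.33.

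Replicate 2 of 21W35D stood apart from its group, among others in genes of lymphoid tissue. Its value of CXCR4 was 7.89 beside 12.43 and 12.14, that of CCL19, a chemokine that draws T cells and dendritic cells into lymphoid tissue, was 3.87 beside 11.08 and 10.79, and that of IL16 was 7.13 beside 10.20 and 9.91. Its B cell markers had a mean of 8.09, against 12.01 and 11.77 in the other arrays of 21W35D, and CD79B was at 2.93. It had the lowest correlation with its own group of all arrays (r = 0.97). Of the genes called from S14D to S21D, it was also low in IL10 (4.50 beside 6.93 and 7.13), CXCL14 (10.90 beside 13.35 and 13.26) and IL2RG (5.55 beside 8.88 and 8.68). It was high in IL1R1 (6.76 beside 5.02 and 4.80) and IL11RA (8.70 beside 7.23 and 7.15). IL18BP (8.61 beside 8.80 and 9.05) and CCL14 (2.56 in each array) did not stand apart. The part of B cells in these values was not tested. CCL19 also ranged from 3.28 to 9.55 in S14D piglets, and its neighbour in the genome, CCL21, which shares the receptor CCR7, did not exceed 3.18. CCR7 was at the floor.

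**Figure D5:**
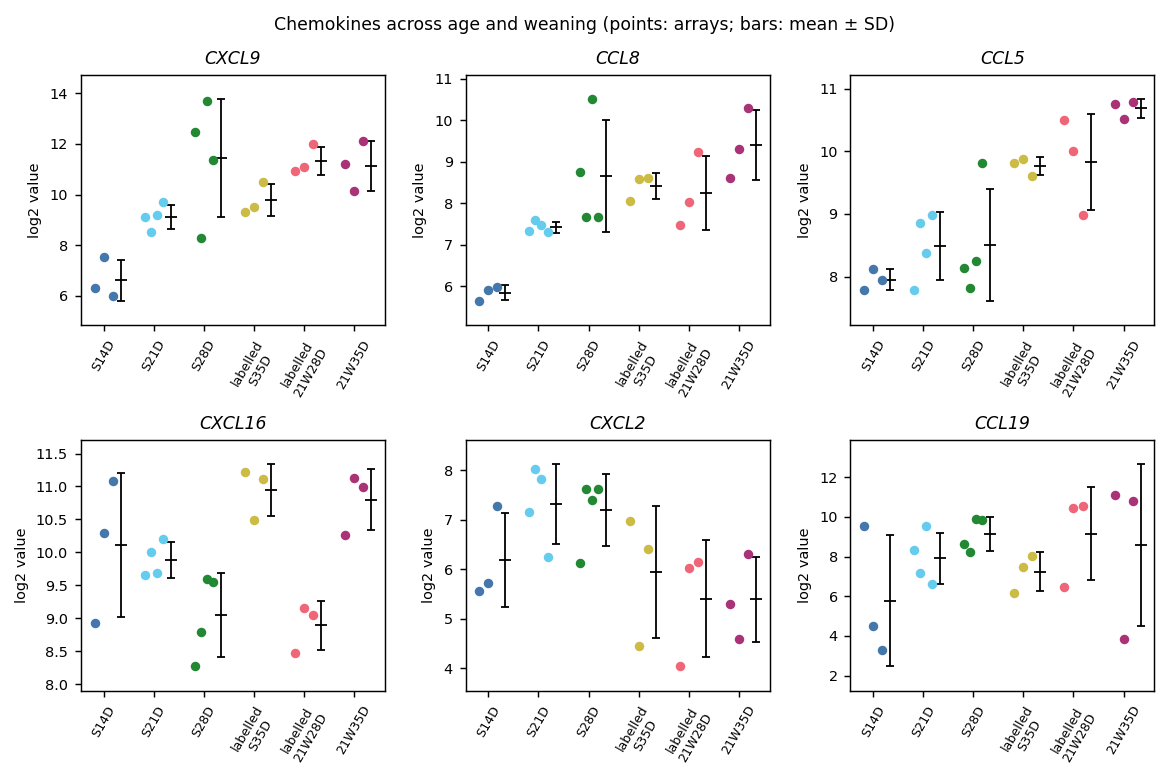
Log2 values of CXCL9, CCL8, CCL5, CXCL16, CXCL2 and CCL19 in each array (points) by group, with the mean ± SD of each group beside them. CCL5 is highest in the 3 arrays of 21W35D, CXCL16 in the arrays labelled S35D and in 21W35D, and CCL19 has 1 low array in 21W35D and 2 in S14D.

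At equal age, no gene of the 54 was called between S28D piglets and the arrays labelled 21W28D, beside 0.0% of all genes, and 4 passed at an unadjusted p under 0.05 in limma. CXCL2 measured 6.13, 7.62, 7.40 and 7.63 in S28D piglets and 4.04, 6.02 and 6.15 in the arrays labelled 21W28D, a difference of -1.79 (standard error 0.73, limma adjusted p = 1.0) that was -1.25 with the labels exchanged. The highest array labelled 21W28D was just above the lowest S28D array. CCL5 differed by 1.33 and IL34, a ligand of the macrophage receptor CSF1R, by 0.78, with adjusted p of 1.0 for both, and with the labels exchanged by 1.26 and -0.08. With the labels exchanged, CXCL16 and CCL14 were called in this comparison with the values given above for S28D and the arrays labelled S35D, beside 9.05% of all genes.

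Between the arrays labelled S35D and 21W35D piglets none was called, beside 0.0443% of all genes, and 4 passed at an unadjusted p under 0.05 in limma. IL18BP measured 8.03, 8.15 and 8.10 in the arrays labelled S35D and 8.80, 8.61 and 9.05 in 21W35D piglets. The groups did not overlap, and the difference of 0.72 (standard error 0.26) was not called (limma adjusted p = 0.665) and was 0.31 with the labels exchanged. CXCL9 differed by 1.37, CCL19 by 1.35 and IL16 by 1.13, and these 3 differences turned to -0.19, -0.58 and -0.87 with the labels exchanged. In neither comparison at equal age did the methods' t-test give a gene at an unadjusted p under 0.05 and at least 2-fold. After adjustment it gave none either.

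Between S21D piglets and the arrays labelled 21W28D none was called in limma, beside 0.0% of all genes, with 7 at an unadjusted p under 0.05. The methods' t-test gave 4 before adjustment at 2-fold or more, CCL5, CCR3, CXCL9 and CXCR6, and none after. CXCL9 measured 10.93, 11.09 and 11.98 in the arrays labelled 21W28D, all above S21D, with a difference of 2.21 (standard error 0.94, limma adjusted p = 1.0) that was 0.66 with the labels exchanged. CXCL2 was below S21D in all 3 arrays (difference -1.91, exchanged -1.37), and CXCL16 as well (difference -0.99), but with the labels exchanged CXCL16 was 1.05 higher. From the arrays labelled 21W28D to 21W35D none was called, beside 0.133% of all genes, with 2 at an unadjusted p under 0.05 in limma. The methods' t-test gave 1 before adjustment at 2-fold or more, CXCL16. CXCL16 measured 10.27, 11.13 and 10.99 in 21W35D piglets, above all arrays labelled 21W28D, with a difference of 1.90 (limma adjusted p = 0.199). That difference was -0.14 with the labels exchanged. Whether the weaned and suckling difference itself changed between 28 and 35 days was tested by an interaction, which called none of the 54, beside 0.0% of all genes, with 3 at an unadjusted p under 0.05 in limma.

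Among the remaining genes at measurable levels, ranges of group means differed widely. CCL25, which small intestinal epithelium makes to attract gut-homing lymphocytes, lay between 11.09 and 13.84 in all arrays, with a range of group means of 0.97. IL4R had a range of group means of 0.50, CXCL12 of 0.60 and IL1B of 0.68. The macrophage chemokines CCL4 and CCL3L1, which lie next to each other in the Sscrofa11.1 assembly, had their lowest means in S14D piglets, at 5.27 and 2.86, and ranges of 2.17 and 1.58. CCL4 and IL7 were called in the age test without dim probe sets (limma adjusted p = 0.0214 and 0.0294). For IL7 this is a description only, since it passed that filter mainly through arrays labelled S35D, where it was high. CCL4 measured 7.49, 6.78 and 8.05 in 21W35D and 6.37, 6.90, 6.01 and 5.83 in S21D piglets, so that these groups overlapped (difference 1.16, limma adjusted p = 0.422). The monocyte attractant CCL2 had a range of 1.39, and CCL24, a ligand of CCR3, had one of 2.17, with its highest value, 10.80, in 21W35D replicate 2, against 7.22 and 9.09 in the other arrays of that group. IL15 was highest in the same array, at 8.12, and IL7 reached 5.28 both there and in replicate 1 of the arrays labelled S35D.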

How the data were processed

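Total RNA of ileal mucosa was hybridised to 20 Affymetrix GeneChip Porcine Genome Arrays, 1 piglet each. The deposited values are log2 units per probe set, which the authors obtained by gcRMA. GCOS 1.2 and GCRMA are listed in the submitters' processing notes. No reads were counted, so that the number of arrays limits the precision. Of 24123 probe sets, 124 controls were left out. Symbols came from the platform annotation (10069 probe sets had 1 symbol, 198 several and 13732 none), and all 54 members matched the RefSeq table of Sscrofa11.1. Groups followed the deposited labels, with replicate numbers used as a block only in an alternative.

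limma 3.58.1 (R 4.3.3, statmod 1.5.0) was run on all 20 arrays, with a mean for each group and 8 pairwise contrasts, 2 F tests and 1 interaction, with Benjamini-Hochberg adjustment over 23999 probe sets and a call at an adjusted p under 0.05. The fit was tested on simulated data. Genes were named by a rule: every member called in any test, the 5 largest differences of each pairwise comparison among members with a group mean of at least 5, their known ligands or receptors, and up to 4 called genes per pathway list; further members were named after their values were seen. Members and lists were chosen with earlier results of these data known. The alternatives were a filter of 4 log2 units in at least 3 arrays, only the groups compared, an intensity trend, averaging the probe sets of a gene, 2 scalings, the replicate block, exchanged labels, a 2-fold minimum, the methods' t-test and each array left out. Leaving out all arrays of the 2 doubted groups was added after seeing the data. Python 3.11.15 and matplotlib 3.10.9 drew the figures.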

Additional observations from a re-analysis of the deposited data

Results flagged for a closer look

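CXCL2 and CXCR4 each had 1 S28D array far below the others, replicate 1 in both cases. CXCL2 measured 6.13 there, with the nearest array at 7.40, and the gap was 0.842 of the range of the group. CXCR4 measured 12.46, with the nearest array at 13.11, a gap of 0.859 of the range. Both gaps exceed Dixon's critical value for 4 arrays. Of 52 groups of 4 arrays tested, these were the 2 past it, and chance passes about 5.0% of such groups.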

How the results depend on the processing

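Of 45 differences of single genes examined, 9 were called. With 1 array left out, 856 values kept their direction and their side of the threshold, 37 lost and 7 gained a call, and none turned. Under the other settings 458 kept both, 21 lost and 21 gained a call, and 12 turned, all with the 2 doubted labels exchanged: CXCL16, CCL19 and IL16 from S28D to S35D (-0.15, 0.02 and 0.19), CCL19 and CXCL16 from S21D to 21W28D (-0.67 and 1.05), IL34 and CXCL8 from S28D to 21W28D (-0.08 and 0.70), CXCL9, CCL19, IL16 and IL2RG from S35D to 21W35D (-0.19, -0.58, -0.87 and -0.88) and CXCL16 from 21W28D to 21W35D (-0.14). That exchange gave 0 calls from S28D to S35D, 2 from S28D to 21W28D and 6 in the age test. Shares over all genes were counted only in the main fit and with exchanged labels. The counts under all other settings, here and below, therefore do not show whether these genes differ from others. From S14D to S21D, 12 genes were called without dim probe sets (9 higher, 3 lower). With the doubted groups left out of the fit, 4 were called (CCL14, IL10, IL18 and IL18BP). The methods' t-test gave 11 before adjustment at 2-fold or more (8 higher, 3 lower). From S28D to S35D there were 3 without dim probe sets: CXCL16, CCL5 and IL7, which passed that filter mainly through arrays labelled S35D. In this comparison there were 0 in the fit of these groups alone and 1 with a 2-fold minimum. There the t-test gave 6 before adjustment at 2-fold or more (2 higher, 4 lower) and 0 after adjustment. At 2-fold or more, the t-test before adjustment gave 4 from S21D to 21W28D, 1 from 21W28D to 21W35D and 6 from S21D to 21W35D. In the last of these CCL5 was the 1 gene called without dim probe sets and under both scalings, and in the 5-group test 1 gene (CXCL16) was called in the fit of these groups alone. The cause of these shifts was not tested, except that fewer probe sets were adjusted over without dim ones.

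Replicate numbers did not pair the arrays: of 46 pairs with the same number, 18 correlated above 0.1 and 19 below -0.1 (median 0.042). With the replicate block, 6 genes were called from S14D to S21D (without CXCL14 and IL2RG, with CCL8), 2 from S28D to S35D (CXCL16 and CCL5, without CCL14), 1 from S21D to 21W35D (CCL5), 9 in the age test and 2 in the 5-group test.

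With each array left out in turn, between 2 and 11 genes were called from S14D to S21D (2 without S14D replicate 3, 3 without S14D replicate 2 or S21D replicate 1, 4 without S21D replicate 2 or 3, 11 without S14D replicate 1 or 21W35D replicate 2), 0 to 4 from S28D to S35D (0 without S28D replicate 2 or S35D replicate 3, 4 without 21W35D replicate 2), 0 to 1 from S21D to 21W35D, 4 to 16 in the age test (4 without S14D replicate 3, 16 without 21W35D replicate 2) and 0 to 3 in the 5-group test (3 without S35D replicate 2). In the other comparisons no such fit called a gene. Signal near the floor limits what 22 of the 54 genes can show.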
